A study of Homo sapiens with 3 samples.

Results

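The miR-148 and miR-152 family comprises the hairpins hsa-mir-148a, hsa-mir-148b and hsa-mir-152, whose 3p arms carry the same seed. Members were taken by name, and all 3 hairpins were found among 661 listed hairpins and all 6 of their mature arms among 783 listed mature miRNAs. The small RNA came from MV4-11, a cell line of human acute myeloid leukemia (AML) with the MLL-AF4 fusion and an internal tandem duplication of FLT3. Every culture had been infected with an empty-vector (EV) lentiviral CRISPR-Cas9 construct, had a genotype labelled WT, and was cultured for 2 weeks ahead of RNA isolation. There were 3 replicate cultures in 1 group, so no treatment was compared and all values describe a single cell line. p-values therefore test ratios between arms or miRNAs in these cultures alone, and none tests a difference between conditions.

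MicroRNAs guide Argonaute proteins to mRNAs, mainly by pairing of the seed, bases 2 to 8 of the mature strand, with sites in the target. Each hairpin can release a 5p and a 3p arm, and usually only one of them is kept while the other is degraded. In this family the 3p arms are the guide strands, and they are known for repressing DNMT1, the maintenance DNA methyltransferase. MIR148A, MIR148B and MIR152 lie on different chromosomes, so each of the shared-seed miRNAs comes from a transcript of its own.

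The mature 3p sequences are shown because they define the family, with the seed (bases 2 to 8) in capitals, 5′ to 3′, from RefSeq on GRCh38.p14.
hsa-miR-148a-3p: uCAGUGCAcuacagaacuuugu
hsa-miR-148b-3p: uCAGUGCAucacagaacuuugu
hsa-miR-152-3p: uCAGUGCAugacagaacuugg
The seed CAGUGCA is the same in all 3, and its reverse complement, the letters a perfectly matched target would hold, is UGCACUG. Counting from 1 at the 5′ end and giving the base of the first-named miRNA first, miR-148a-3p and miR-148b-3p differ at C9U and U10C, and the first 8 and last 12 of their 22 bases are identical. miR-148a-3p and miR-152-3p differ at C9U, U10G and U20G over 21 compared bases. miR-148b-3p and miR-152-3p differ at C10G and U20G. No other listed miRNA with a reference sequence had this seed.

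The 5p arms, the passenger strands, are shown in the same way where the table held them, because their seeds differ. The sequence of hsa-miR-148a-5p was not in the table.
hsa-miR-148b-5p: aAGUUCUGuuauacacucaggc
hsa-miR-152-5p: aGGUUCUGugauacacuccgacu
The hairpins are given with those arms in capitals, to show where each lies on its precursor.
hsa-mir-148a: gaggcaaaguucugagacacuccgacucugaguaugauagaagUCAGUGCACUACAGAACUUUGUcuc
hsa-mir-148b: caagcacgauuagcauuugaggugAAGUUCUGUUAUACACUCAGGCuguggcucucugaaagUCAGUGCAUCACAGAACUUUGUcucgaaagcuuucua
hsa-mir-152: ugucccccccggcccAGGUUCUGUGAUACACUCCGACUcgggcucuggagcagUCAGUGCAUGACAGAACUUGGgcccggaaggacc

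On GRCh38, MIR148A lies at chr7:25949919-25949986 on the minus strand. No other gene of GENCODE release 29 overlaps it, and the nearest protein-coding gene, NFE2L3, is 202 kb away. MIR148B lies at chr12:54337216-54337314 on the plus strand, in an intron of COPZ1 and within the overlapping transcript AC078778.2 of the same strand. MIR152 lies at chr17:48037161-48037247 on the minus strand, in an intron of COPZ2. COPZ1 and COPZ2 encode the alternative zeta subunits of the COPI vesicle coat, so the family has both intronic loci in a pair of related host genes and an intergenic locus. The host transcripts were not measured by these small RNA libraries.

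Between 10991953 and 12694823 counts were assigned to mature miRNAs per library. Reads were not tagged by molecule, so PCR copies are counted too and intervals cover counting error only. All 6 fixed miRNAs of white blood cells were listed, from miR-155-5p with 1100895 ± 124530 FPKM to miR-150-5p with 53 ± 30 FPKM (SD, n = 3), the latter from only 7 to 21 counts. Listing did not set them apart, since all those fixed for stroma, red blood cells, liver and neural cells were listed too. For epithelium 2 of 3 were listed and for muscle 1 of 2. All 3 fixed for leukemia with rearranged KMT2A were listed, namely miR-9-5p (340814 ± 29486 FPKM), miR-196b-5p (54867 ± 30697) and miR-10a-5p (479 ± 177). Neural miR-124-3p (55618 ± 32463 FPKM) and stromal miR-199a-3p (49698 ± 19241) lay above miR-146a-5p of white blood cells (27965 ± 9332). Both lay below miR-223-3p, miR-142-3p, miR-142-5p and miR-155-5p. Replicate 1 stood apart from the others. Across the 163 mature miRNAs with at least 1000 counts in every library, the median log2 ratio of FPKM was 0.41 for replicate 2 over replicate 1 and 0.52 for replicate 3 over replicate 1, against 0.12 for replicate 3 over replicate 2. FPKM, the unit of all levels below, is reads scaled by feature length and library size, as deposited by the authors.

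The 3p arm of miR-148a was by far the most abundant product of the family. miR-148a-3p had 980493, 553096 and 448188 counts in replicates 1, 2 and 3, which gave 3677134, 2395599 and 1826500 FPKM. Its mean of 2633077 ± 947897 FPKM (SD, n = 3) ranked 2 of 783. Only miR-21-5p, the most abundant miRNA of the libraries, was higher in every library. The gap to let-7f-5p, next below, was smaller than the SD of miR-148a-3p, which exceeded let-7f-5p in only 2 of 3 libraries.

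miR-148b-3p was the second member in level. It had 71347, 72310 and 84918 counts in replicates 1, 2 and 3, or 267572, 313193 and 346066 FPKM. The mean of 308944 ± 39419 FPKM (SD, n = 3) ranked 30. Its neighbours in the order, miR-27a-3p above and miR-26b-5p below, lay within the larger SD of each pair.

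miR-152-3p was the lowest of the shared-seed miRNAs. It had 9532, 13076 and 16137 counts, or 37535, 59467 and 69051 FPKM, in replicates 1, 2 and 3. With a mean of 55351 ± 16156 FPKM (SD, n = 3) it ranked 74, between let-7b-5p and miR-196b-5p, and it could not be separated from either. The 3p levels did not overlap between members, since the lowest library of each was above the highest of the next.

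The 5p arms followed the same order at lower levels. miR-148a-5p had 51570, 28833 and 22887 FPKM in replicates 1, 2 and 3 (34430 ± 15139, SD, n = 3, rank 87), from 13751, 6657 and 5616 counts. miR-148b-5p had 5543, 5176 and 4540 FPKM (5086 ± 507, rank 173), from 1478, 1195 and 1114 counts. miR-152-5p had 1296, 649 and 661 FPKM (869 ± 370, rank 297), from 362, 157 and 170 counts. The 5p levels did not overlap between members either. miR-152-3p, a guide arm, exceeded the passenger arm miR-148a-5p in 2 of 3 libraries but not in replicate 1.

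**Figure D1:**
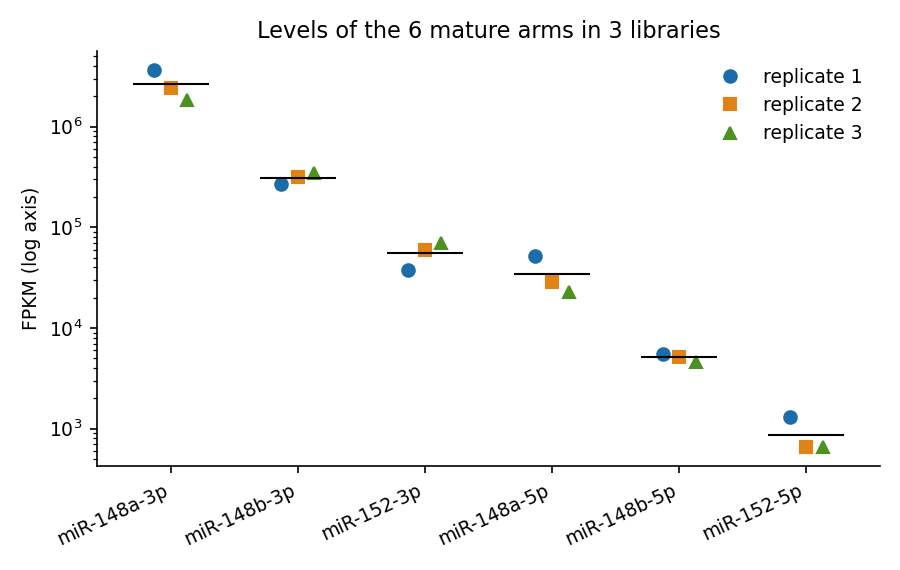
FPKM of each mature arm on a log axis, with a marker per library and a bar at the mean of 3 libraries. The 3p arms fall in the order miR-148a-3p (mean 2633077), miR-148b-3p (308944) and miR-152-3p (55351), and replicate 1 is the highest library for miR-148a-3p but, on this scale, the lowest for the other 3p arms (with DESeq2 size factors or TMM it is the highest for miR-148b-3p).

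Within the shared seed, miR-148a-3p therefore held most of the reads in each library. It made up 92.3%, 86.5% and 81.5% of the summed FPKM of the 3p arms in replicates 1, 2 and 3 (86.8% ± 5.43, SD, n = 3). On counts the shares were 92.4% (Wilson 95% interval 92.3% to 92.4%), 86.6% (86.5% to 86.7%) and 81.6% (81.5% to 81.7%). The differences between libraries were thus beyond counting error. Each culture gave a single library, so culture and library cannot be told apart. The share of miR-148b-3p was 6.72%, 11.3% and 15.4% of FPKM (11.2% ± 4.36, SD, n = 3). That of miR-152-3p was 0.943%, 2.15% and 3.08% (2.06% ± 1.07, SD, n = 3).

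The lead over each relative was large and uneven. miR-148a-3p exceeded miR-148b-3p by 13.7-fold, 7.65-fold and 5.28-fold in replicates 1, 2 and 3, a mean log2 ratio of 3.04 ± 0.70 (SD, n = 3). It exceeded miR-152-3p by 98.0-fold, 40.3-fold and 26.5-fold (mean log2 ratio 5.56 ± 0.96, SD, n = 3). miR-148b-3p exceeded miR-152-3p by 7.13-fold, 5.27-fold and 5.01-fold (mean log2 ratio 2.52 ± 0.28, SD, n = 3). Among the 3p arms, the ratio between the miRNAs with intronic hairpins thus varied least, which did not hold for the 5p arms. Each ratio was above 1 in 3 of 3 libraries. The two-sided exact sign-flip permutation p was 0.25 for all 3 comparisons, which is the smallest that 3 libraries allow.

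The 5p arms divided between the loci in a similar way. miR-148a-5p made up 88.3%, 83.2% and 81.5% of the summed FPKM of the 5p arms in replicates 1, 2 and 3, and miR-148b-5p 9.49%, 14.9% and 16.2%. For miR-152-5p the share was 2.22%, 1.87% and 2.35%. miR-148a-5p exceeded miR-152-5p by 39.8-fold, 44.4-fold and 34.6-fold, so the largest of these ratios was 1.28 times the smallest, against 3.70 times for the 3p arms of the same loci. For miR-148a over miR-148b the largest ratio was 1.85 times the smallest in the 5p arms and 2.60 times in the 3p arms. miR-148b-5p exceeded miR-152-5p by 4.28-fold, 7.97-fold and 6.86-fold in replicates 1, 2 and 3. The largest of these was 1.86 times the smallest, against 1.42 times in the 3p arms.

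**Figure D2:**
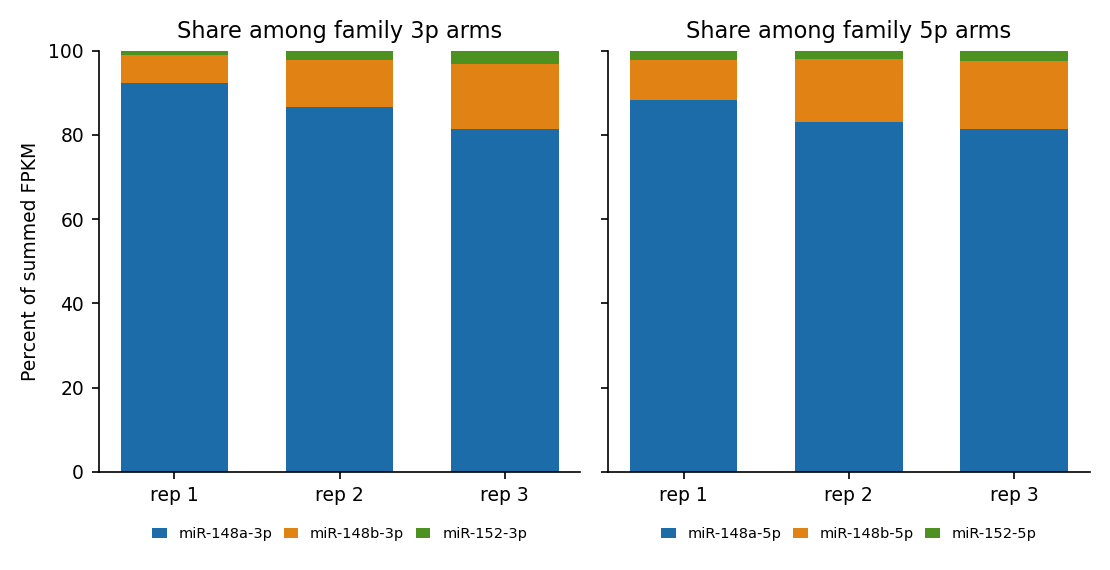
Stacked bars of the percent of summed FPKM that each member holds among the 3p arms (left) and the 5p arms (right) in each library. miR-148a-3p falls from 92.3% in replicate 1 to 81.5% in replicate 3 among the 3p arms, and the share of miR-152-5p stays between 1.87% and 2.35% among the 5p arms.

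The hairpin table, which counts the same small RNA reads over the whole precursor, held almost nothing beyond the arms. Counts of hsa-mir-148a were 994260, 559763 and 453817 in replicates 1, 2 and 3, which was 16, 10 and 13 above the sum of its arms. For hsa-mir-148b the excess was 0, 1 and 2 counts of 72825, 73506 and 86034, and for hsa-mir-152 it was 0, 0 and 1 of 9894, 13233 and 16308. At most 0.00613% of a hairpin's reads thus fell outside both arms. In FPKM the hairpins had 834013 ± 301372 for hsa-mir-148a, 67118 ± 8300 for hsa-mir-148b and 13060 ± 3655 for hsa-mir-152 (SD, n = 3), ranks 2, 33 and 88 of 661. By FPKM hsa-mir-148a made up 94.5%, 90.2% and 86.4% of their sum. These shares are above those of the 3p arms because hsa-mir-148a is the shortest hairpin, with 68 bases against 99 and 87, and FPKM divides by length.

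Which arm was kept was compared within libraries for the family and for all hairpins. All 3 members were called toward the 3p arm, with an adjusted p-value under 0.05 and an absolute log2 ratio of at least 1 in edgeR's quasi-likelihood test. Of 196 hairpins tested, 161 were called (82.1%), with 81 toward 3p (41.3%) and 80 toward 5p (40.8%). The log2 ratio of 5p to 3p counts was -6.28 ± 0.20 for miR-148a (SE, edgeR adjusted p = 7.93e-06), in 3 of 3 libraries. It was -5.92 ± 0.26 for miR-148b (adjusted p = 1.16e-05, edgeR) and -5.90 ± 0.51 for miR-152 (adjusted p = 0.000147, edgeR), also in 3 of 3 libraries each. They stood at positions 17, 21 and 22 counted from the strongest 3p preference, and the median over the 81 hairpins called toward 3p was -3.65.

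Between members the arm ratio was not resolved. The 5p arm of miR-148a took 1.38%, 1.19% and 1.24% of the counts of both arms in replicates 1, 2 and 3 (Wilson 95% intervals 1.36% to 1.41%, 1.16% to 1.22% and 1.21% to 1.27%). For miR-148b it took 2.03%, 1.63% and 1.29%. For miR-152 it took 3.66% in replicate 1 (Wilson 95% interval 3.31% to 4.05%) but 1.19% in replicate 2 (1.02% to 1.39%) and 1.04% in replicate 3 (0.898% to 1.21%). Arm use was thus steadiest for miR-148a, and miR-152 had a larger 5p share in replicate 1 than in the others, beyond counting error. The 3p preference of miR-148a exceeded that of miR-148b by a mean log2 difference of 0.36 ± 0.26, seen in 3 of 3 libraries (SD, n = 3, exact two-sided sign-flip permutation p = 0.25), and that of miR-152 in only 1 of 3.

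**Figure D3:**
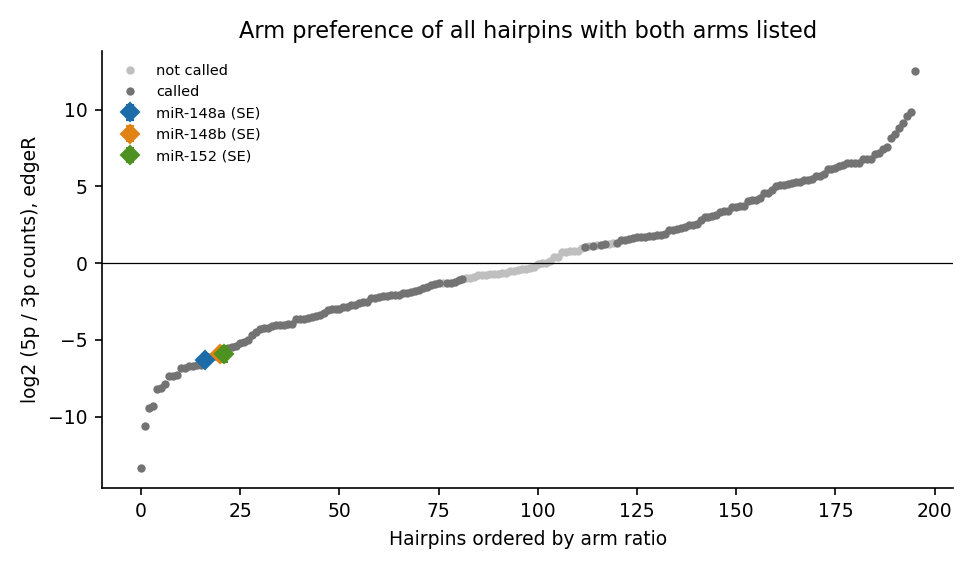
edgeR log2 ratio of 5p to 3p counts for 196 hairpins, ordered from the strongest 3p preference to the strongest 5p preference, with called hairpins in dark grey and the family in colour with its SE. The members lie together near the 3p end, at -6.28, -5.92 and -5.90.

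The replicates were then compared member by member, since the family did not vary as a unit. The coefficient of variation of FPKM was 36.0% for miR-148a-3p, 12.8% for miR-148b-3p and 29.2% for miR-152-3p, where the median of the 163 abundant miRNAs was 29.1%. miR-148a-3p was lower in the other replicates than in replicate 1, by log2 ratios of -0.62 in replicate 2 and -1.01 in replicate 3. Its ratios to replicate 1 ranked 7 and 4 from the lowest of the 163. miR-152-3p went the opposite way, with log2 ratios of 0.66 and 0.88, and miR-148b-3p was at 0.23 and 0.37 on the FPKM scale but at -0.25 and -0.19 with DESeq2 size factors and -0.29 and -0.27 with TMM. Relative to the medians of all abundant miRNAs, replicate 3 over replicate 1 was -1.53 for miR-148a-3p, -0.15 for miR-148b-3p and 0.36 for miR-152-3p.

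Both arms of miR-148a moved together. miR-148a-5p had log2 ratios of -0.84 and -1.17 in replicates 2 and 3 over replicate 1, the second lowest of the 163 in each, and a coefficient of variation of 44.0%. The arms of miR-152 went opposite ways under all 3 scalings, with miR-152-5p at 649 and 661 FPKM against 1296 in replicate 1 and miR-152-3p higher than in replicate 1 in both. For miR-148b the direction depended on the scaling. miR-148b-5p had log2 ratios of -0.10 and -0.29 on the FPKM scale, opposite in sign to miR-148b-3p, but with DESeq2 size factors (-0.57 and -0.85) and TMM (-0.61 and -0.93) both arms were lower in replicates 2 and 3. Of the 163 abundant miRNAs, 37 were highest in replicate 1 (22.7%) and 115 were lowest there (70.6%). How far the difference of replicate 1 as a library enters these values was not tested.

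The spread depended on the scaling. With DESeq2 size factors, which centre the libraries on the median miRNA, the coefficient of variation was 58.3% for miR-148a-3p, 9.13% for miR-148b-3p and 10.9% for miR-152-3p. The median of the 163 abundant miRNAs was then 21.7%. In replicates 2 and 3 alone, on the deposited scale, the coefficient was 19.1% for miR-148a-3p, 7.05% for miR-148b-3p and 10.5% for miR-152-3p.

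**Figure D4:**
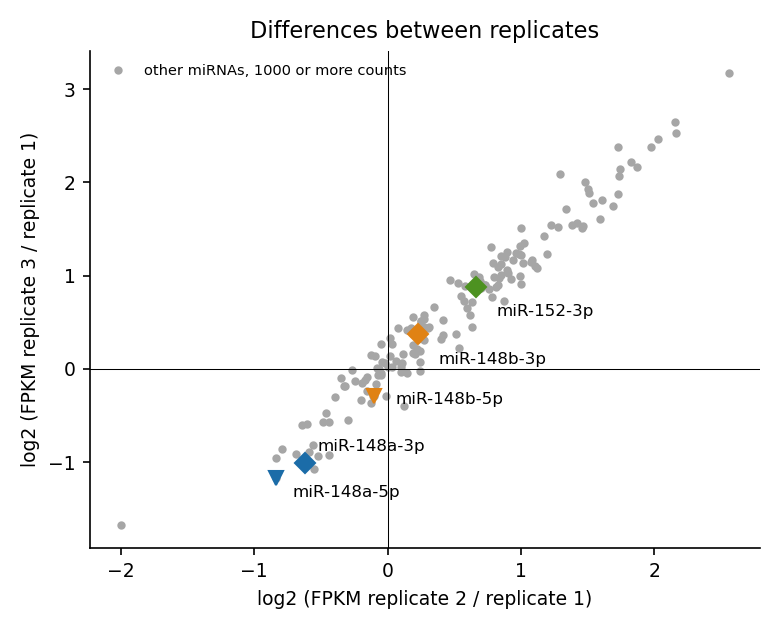
log2 ratio of FPKM in replicate 2 (x) and replicate 3 (y) over replicate 1 for 163 mature miRNAs with at least 1000 counts in every library, with family arms in colour (diamonds 3p, triangles 5p). Both arms of miR-148a lie at the low end, with -0.62 and -1.01 for miR-148a-3p, and miR-152-3p lies above 0 at 0.66 and 0.88.

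The miRNAs whose centred log2 profiles over the 3 libraries were nearest to miR-148a-3p were miR-21-5p (distance 0.0723), miR-6842-3p (0.0902), miR-146b-5p (0.0916), miR-7974 (0.114) and miR-4497 (0.125). The median distance over all other abundant miRNAs was 1.11. miR-21-5p, the only miRNA above miR-148a-3p in mean level, had 18349809, 12778382 and 9623727 FPKM in replicates 1, 2 and 3, so both had a similar profile. This did not extend to let-7f-5p, next in level, with log2 ratios of -0.35 and -0.10 in replicates 2 and 3 over replicate 1. The distance from miR-148a-3p to its relative miR-148b-3p was 0.984, and that to miR-152-3p was 1.36, above the median. miR-148b-3p and miR-152-3p were 0.389 apart. With only 3 libraries of 1 group, these distances describe the replicates and no condition.

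How far a single member leads was set beside other seed families. Of 14 families with at least 3 listed members and the same bases 2 to 8, 5 were left out because a listed miRNA of the same number had no sequence in the table. Among the 9 left, the miR-148 and miR-152 family ranked 3 by the share of its leading member. The shares next above were 91.8% ± 1.12 for miR-99b-5p and 95.6% ± 0.62 for miR-29a-3p, and those next below were 75.6% ± 4.91 for miR-92a-3p, 73.3% ± 1.32 for miR-16-5p and 68.8% ± 4.36 for miR-181a-5p (SD, n = 3). Family sizes were not matched in this ranking. The families next above had 3 listed members each, like this one, and those next below had 4, 6 and 4. A lower-ranked family of 3 members, led by miR-200c-3p, had a share of 60.8% ± 9.03 (SD, n = 3). The share of miR-148a-3p, 86.8% ± 5.43, differed from that of miR-99b-5p by less than its SD. By summed level the family also ranked 3 of the 9, after the let-7 family and the miR-17 family that miR-20a-5p led. By SD of the share it ranked 2.

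**Figure D5:**
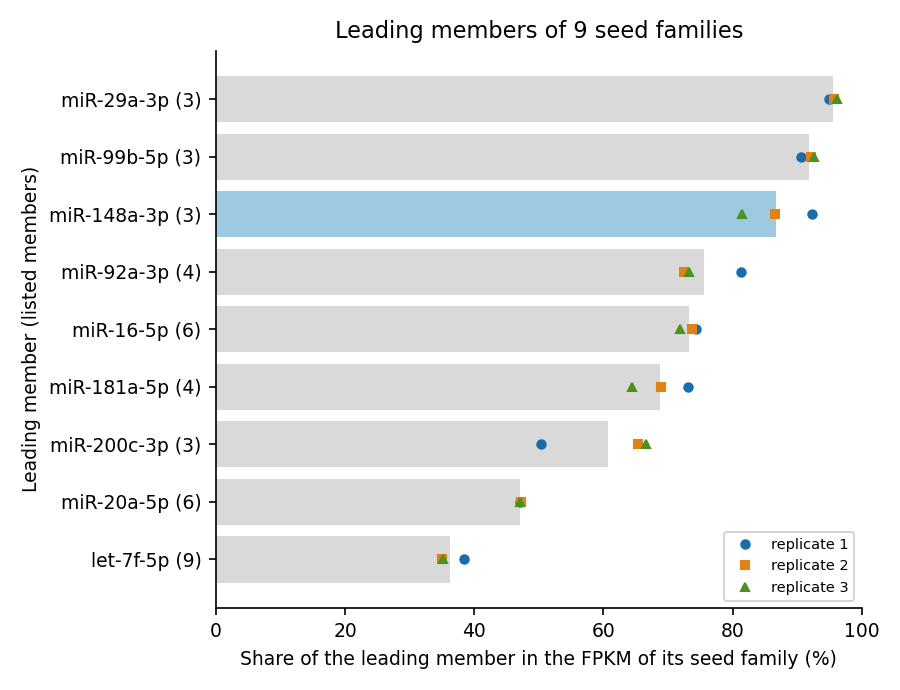
Share of the leading member in the summed FPKM of its seed family (%), as a bar at the mean and a marker per library, for 9 seed families with the number of listed members in brackets. The family of miR-148a-3p (light blue) ranks 3 with a mean of 86.8%, and its libraries spread from 81.5% to 92.3%.

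A further family holds part of the same seed. The 3p arms of miR-130b, miR-301a and miR-454 begin the letters AGUGCA at base 2, where miR-148a-3p begins them at base 3, so the seeds overlap with a shift of 1 base. They are shown for that reason, with bases 2 to 8 in capitals.
hsa-miR-130b-3p: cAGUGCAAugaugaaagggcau
hsa-miR-301a-3p: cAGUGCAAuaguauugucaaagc
hsa-miR-454-3p: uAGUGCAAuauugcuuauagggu
miR-454-3p had 11408 ± 3432 FPKM, miR-130b-3p 5151 ± 2298 and miR-301a-3p 1764 ± 764 (SD, n = 3). miR-301b, listed without an arm, had 3887 ± 2034 FPKM (SD, n = 3). The summed 3p arms of the miR-148 and miR-152 family had 3982241, 2768259 and 2241617 FPKM in replicates 1, 2 and 3, and exceeded the sum of these 3 shifted-seed arms by 362-fold, 134-fold and 96.0-fold. Even miR-152-3p, the lowest of the family, exceeded each of them in every library.

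Arm use differed between the hairpins of the families. miR-454 was called toward 3p, with a log2 ratio of -2.99 ± 0.30 (SE, edgeR adjusted p = 0.000237). miR-130b was called toward 5p at 2.57 ± 0.43 (edgeR adjusted p = 0.00237) and miR-301a toward 5p at 1.09 ± 0.36 (edgeR adjusted p = 0.0333). Each of these calls had the same side in 3 of 3 libraries, and the difference from the miR-148 and miR-152 hairpins was not tested.

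In all, the 6 arms of the family took 8.48%, 5.88% and 4.76% of the mature counts in replicates 1, 2 and 3. Ligation of adapters depends on the ends of an RNA, so levels of different miRNAs are not strict molar ratios. The part of this bias in the order of the members was not tested, and neither was the assignment of reads with mismatches between the near-identical 3p arms.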

How the data were processed

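Small RNA libraries of 3 replicate cultures (New England Biolabs preparation) were aligned by the authors and counted over miRBase release 21. The deposited tables give read counts per mature miRNA and per hairpin, without normalization, and the authors' FPKM values made from the same counts. The length behind FPKM was 1 base below the RefSeq length for every member compared, and the total per library was 0.0205% to 0.0229% above the sum of the mature rows. Novoalign 2.08.03 and the builds hg19 and mm10 are named in the submitters' processing notes without a role. Mismatch and multiple-mapping settings are not given in the sources used here.

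Rows of one name were summed, which touched no member. Levels and ratios used FPKM as deposited. Arm preference was tested on counts with edgeR 4.0.16 (R 4.3.3), with library and arm as terms and a minimum of 10 summed counts. The variation behind each test was estimated with sharing across the tested hairpins. SEs were derived from the F statistic, and p-values were adjusted with the Benjamini-Hochberg method over all 196 hairpins. limma 3.58.1 on log2(FPKM + 1) and DESeq2 1.42.0 were alternatives. The fit was tested on simulated data with known arm ratios smaller than those of the family. That test does not cover ratios as large as those of the family. Named miRNAs were the family's arms, miRNAs of the same or the shifted seed, neighbours in level, the 5 nearest profiles, and neighbouring seed families. Sequences came from RefSeq (GRCh38.p14), which held 679 of 783 mature names. The members and lists were chosen with earlier results of these data known, and leaving out incomplete seed families was decided after the data were seen.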

Additional observations from a re-analysis of the deposited data

How the results depend on the processing

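With 1 group, no samples could be paired across groups, and the arms were compared within libraries. Of 189 values recomputed under an alternative, 172 were labelled the same and 17 moved, while none of them reversed. Part of this was fixed in advance, so these numbers do not measure robustness. All 196 listed arm pairs passed the filter on low counts, so leaving it out repeated the main fit. TMM factors nearly cancel between arms of the same library. Ratios between members had the same sign in every library, so leaving out a replicate could not reverse them. Shares and levels were the same if they moved by less than the SD over replicates. Leaving out a replicate cannot move a mean over these replicates that far, so for those alternatives the label was fixed in advance. Ratios between members had only to keep their sign, and arm ratios their call. Coefficients of variation, ranks, positions and numbers of calls had to stay within a fixed fold of the main value. The 17 that moved were coefficients of variation and the position among seed families. The 3 family members kept their 3p call under each alternative to the arm test. Alternatives with RefSeq lengths, without the library block and with incomplete seed families kept were chosen after seeing the data. Without the replicate block 162 hairpins were called, 157 of them among the 161 of the main test. With one replicate left out, between 140 (without replicate 2, 139 shared) and 169 (without replicate 1, 156 shared) were called. Leaving out one replicate moved the share of miR-148a-3p to between 84.0% and 89.4%.

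The sign of the difference of miR-148b-3p from replicate 1 turned with the scaling, from log2 ratios of 0.23 and 0.37 in FPKM to -0.25 and -0.19 with DESeq2 size factors. The coefficient of variation between replicates also depended on it. It went with DESeq2 size factors and TMM factors from 36.0% to 58.3% and 60.9% for miR-148a-3p, from 29.2% to 10.9% and 8.28% for miR-152-3p, from 44.0% to 66.6% and 69.1% for miR-148a-5p, from 9.98% to 31.1% and 33.8% for miR-148b-5p, and from 42.6% to 65.7% and 68.3% for miR-152-5p. With one replicate left out it ranged from 19.1% to 47.6% for miR-148a-3p, 7.05% to 18.1% for miR-148b-3p, 10.5% to 41.8% for miR-152-3p, 16.3% to 54.5% for miR-148a-5p, 4.84% to 14.1% for miR-148b-5p and 1.32% to 47.0% for miR-152-5p. The lowest of each came without replicate 1, except for miR-148b-5p, where it came without replicate 3. The scalings raise replicate 1 against the others by construction. With seeds of bases 2 to 7 the family ranked 6 of 17 by the share of its leading member, in place of 3 of 9, and with incomplete families kept 4 of 14. The 3 libraries of 1 group limit every comparison between members.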
